A study of Mus musculus with 12 samples.

Results

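Of the 44345 gene names in each deposited count table, 6 were examined as genes of itch neurons: the receptor genes Il31ra, Cysltr2 and Htr1f and the peptide genes Nppb, Sst and Nts. They were taken by symbol and chosen by their depth-scaled read counts in EE against SH in each preparation, so their housing differences are given as a description without a test. Libraries came from the sciatic dorsal root ganglia (DRG, levels L4 to L6) of C57BL/6 mice aged 5 to 8 weeks, which lived for 10 days either under Standard Housing (SH) or under Environmental Enrichment (EE). For each housing, 1 preparation was RNA of whole ganglia with 2 mice to a library. Its column names carry the word Sham, which no label explains. The other was RNA of neurons that were identified by toluidine blue, measured 30 µm or more across and were isolated by laser capture, with 3 mice to a library. This gave 4 groups of 3 libraries, and because the labels do not state that every library had its own mice, the p-values reflect variation among libraries that could be technical.

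Itch is carried from the skin by a small set of unmyelinated sensory neurons whose cell bodies lie in the DRG. One class of them makes natriuretic polypeptide B (Nppb), which is released in the spinal cord and acts there on the receptor Npr1, together with somatostatin (Sst) and neurotensin (Nts). The same class carries receptors for inflammatory signals: Il31ra, which pairs with Osmr to bind the T cell cytokine interleukin 31 and signals through Jak1, Cysltr2, a receptor for cysteinyl leukotrienes, and Htr1f, a serotonin receptor coupled to inhibitory G proteins. These neurons have small cell bodies, so a capture by size aims at other cells.

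All 6 genes are protein-coding. In mm10, with positions from GENCODE vM21 (build GRCm38), Il31ra lies on chromosome 13 from 112519898 to 112594360, Cysltr2 on chromosome 14 from 73025603 to 73049114, Nts on chromosome 10 from 102481756 to 102490486, Sst on chromosome 16 from 23889573 to 23890958 and Htr1f on chromosome 16 from 64924729 to 65105854, all on the minus strand. Nppb lies on chromosome 4 from 147985788 to 147987205 on the plus strand. Il31ra alone shares exon bases with another annotated gene, 45 bases with the pseudogene Gm3226 on the same strand. The peptide genes are short, with 721 bases of merged exons in Sst, 781 in Nppb and 1248 in Nts, against 2579 in Htr1f, 2872 in Cysltr2 and 5673 in Il31ra.

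The promoters of the 4 genes that lay lower in captured neurons of enriched mice are printed because these genes moved in the same direction there. The sequences are from RefSeq (GRCm38.p6), whose table held all 6 members, and cover the 250 bases before the start annotated by RefSeq, 5′ to 3′ on the gene's strand: chr13:112580663-112580912 (minus) for Il31ra, chr14:73049115-73049364 (minus) for Cysltr2, chr4:147985650-147985899 (plus) for Nppb and chr16:23890845-23891094 (minus) for Sst. These starts are not those of the GENCODE positions above for every gene: the RefSeq start lies 13698 bases inside the GENCODE gene for Il31ra, 112 for Nppb and 114 for Sst, and at the same base for Cysltr2. The Il31ra window is therefore intragenic in GENCODE, and those of Nppb and Sst run past the GENCODE start. Capitals mark matches to 4 motifs searched on both strands.
Il31ra: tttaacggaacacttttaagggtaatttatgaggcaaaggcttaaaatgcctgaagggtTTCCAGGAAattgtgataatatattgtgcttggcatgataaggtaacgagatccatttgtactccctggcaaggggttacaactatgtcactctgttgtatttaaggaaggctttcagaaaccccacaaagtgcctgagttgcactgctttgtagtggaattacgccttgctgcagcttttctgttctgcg
Cysltr2: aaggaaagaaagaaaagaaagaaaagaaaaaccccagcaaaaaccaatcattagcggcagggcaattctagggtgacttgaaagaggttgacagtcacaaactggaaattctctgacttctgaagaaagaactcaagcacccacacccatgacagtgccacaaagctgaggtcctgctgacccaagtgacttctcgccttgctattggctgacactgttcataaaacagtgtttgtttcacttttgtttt
Nppb: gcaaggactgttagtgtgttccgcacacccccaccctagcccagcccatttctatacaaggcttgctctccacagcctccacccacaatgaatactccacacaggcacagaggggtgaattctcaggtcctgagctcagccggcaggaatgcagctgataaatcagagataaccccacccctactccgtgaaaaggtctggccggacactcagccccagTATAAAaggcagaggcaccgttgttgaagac
Sst: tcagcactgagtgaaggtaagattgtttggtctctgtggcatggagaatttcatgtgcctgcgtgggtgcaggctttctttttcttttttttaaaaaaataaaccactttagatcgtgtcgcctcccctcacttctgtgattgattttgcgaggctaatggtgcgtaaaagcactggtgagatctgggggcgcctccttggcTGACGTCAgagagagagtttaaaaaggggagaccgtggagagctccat
Sst held the cAMP response element TGACGTCA, which 1.55% of 32851 promoter windows of this length held. The Nppb window held the TATA box TATAAA (12.4% of windows) from 31 to 26 bases before the RefSeq start, and the Il31ra window held the STAT motif TTCNNNGAA (7.02%). The RUNX motif TGTGGT (14% of windows) had no match in the windows of the 6 genes. Cysltr2, Nts and Htr1f had no match to any of the 4 motifs, so that none of them was shared between members. A match describes letters and not a bound site.

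Whole-ganglion libraries held 11343579 to 17036481 reads in genes and captured-neuron libraries 19296230 to 29434351. Levels are given in CPM, read counts scaled to a common library total, with TMM factors computed within each preparation. All 6 genes passed the filter on low counts in both preparations. Their read counts ran from 22 (Sst) to 431 (Il31ra) per whole-ganglion library and from 10 (Sst) to 1330 (Il31ra) per captured library, so the Sst values carry the largest counting error. The captured libraries came from 3 sequencing lanes, lane 1 holding EE replicate 1 alone and lane 2 SH replicate 2 alone, while lane 3 held the other 2 libraries of each housing. EE replicate 1 was also the deepest captured library. In whole ganglia each lane held 1 SH and 1 EE library.

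In whole ganglia the 6 genes differed little with housing. Il31ra, the interleukin 31 receptor subunit, stood at 24.4, 26.9 and 28.9 CPM in SH replicates 1 to 3 and at 32.8, 26.1 and 29.4 CPM in EE. The groups overlapped, and the log2 fold change (EE minus SH throughout) was 0.14 (SE 0.097). Cysltr2 stood at 9.72, 8.16 and 10.3 CPM in SH and at 10.4, 9.74 and 10.2 CPM in EE, again overlapping (0.099, SE 0.13). The serotonin receptor gene Htr1f stood at 5.24, 5.77 and 5.09 CPM in SH and 7.11, 4.98 and 5.22 CPM in EE (0.098, SE 0.17). EE replicate 1 was the highest library for Htr1f, and the log2 fold change was −0.071 without it.

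Among the peptide genes in whole ganglia, Nppb stood at 16.3, 15.5 and 16.8 CPM in SH and at 17.0, 19.1 and 16.1 CPM in EE (0.11, SE 0.10). Sst stood at 2.00, 2.31 and 1.94 CPM in SH and at 2.25, 2.53 and 1.79 CPM in EE (0.078, SE 0.23). Nts stood at 11.1, 10.4 and 15.4 CPM in SH and at 12.7, 9.36 and 14.4 CPM in EE (−0.019, SE 0.17). The housing groups overlapped for all 6 genes in whole ganglia, where 7.48% of the 15845 genes tested did not overlap, and 0.00631% (1 gene) passed an adjusted p of 0.05 (edgeR quasi-likelihood test, Benjamini-Hochberg). With lane pairs as a replicate block 32 genes passed, and the members' log2 fold changes lay between −0.015 and 0.14.

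In captured neurons, 4 of the 6 genes lay lower under enrichment by 1.71-fold to 1.91-fold, Sst with overlap between the housings. Nts and Htr1f overlapped too, with smaller differences. Il31ra stood at 50.6, 62.6 and 53.3 CPM in SH replicates 1 to 3 and at 35.5, 21.9 and 29.6 CPM in EE. Every EE library lay below every SH library, and the log2 fold change was −0.93 (SE 0.15). Cysltr2 stood at 23.8, 24.6 and 19.7 CPM in SH and at 15.1, 10.4 and 12.3 CPM in EE. It too was lower in each EE library (−0.84, SE 0.15).

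The peptide genes Nppb and Sst lay lower as well. Nppb stood at 13.8, 12.5 and 13.5 CPM in SH and at 10.5, 6.60 and 6.01 CPM in EE, without overlap (−0.77, SE 0.19). Sst, the lowest of the 6, stood at 2.12, 1.08 and 1.86 CPM in SH, from 42, 23 and 36 reads. In EE it stood at 1.45, 0.660 and 0.459 CPM, from 43, 13 and 10 reads. EE replicate 1 lay above SH replicate 2, so the Sst groups overlapped (−0.92, SE 0.44).

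Nts and Htr1f differed less with housing than Il31ra, Cysltr2, Nppb and Sst, Htr1f in the same direction as they did. Nts stood at 14.1, 16.5 and 13.2 CPM in SH and at 16.7, 10.8 and 23.4 CPM in EE, its EE libraries holding both the highest and the lowest value (0.22, SE 0.23). Without EE replicate 3 the log2 fold change of Nts was −0.078. Htr1f stood at 19.7, 17.8 and 18.3 CPM in SH and at 14.1, 19.3 and 15.3 CPM in EE (−0.20, SE 0.13), overlapping because EE replicate 2 lay within the SH range. The housing groups did not overlap for 3 of the 6 genes, all lower in EE, beside 21.1% of the 16186 genes tested, or 10.9% in the lower direction. Nothing is read from these shares, since the members were chosen with this contrast known.

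**Figure D1:**
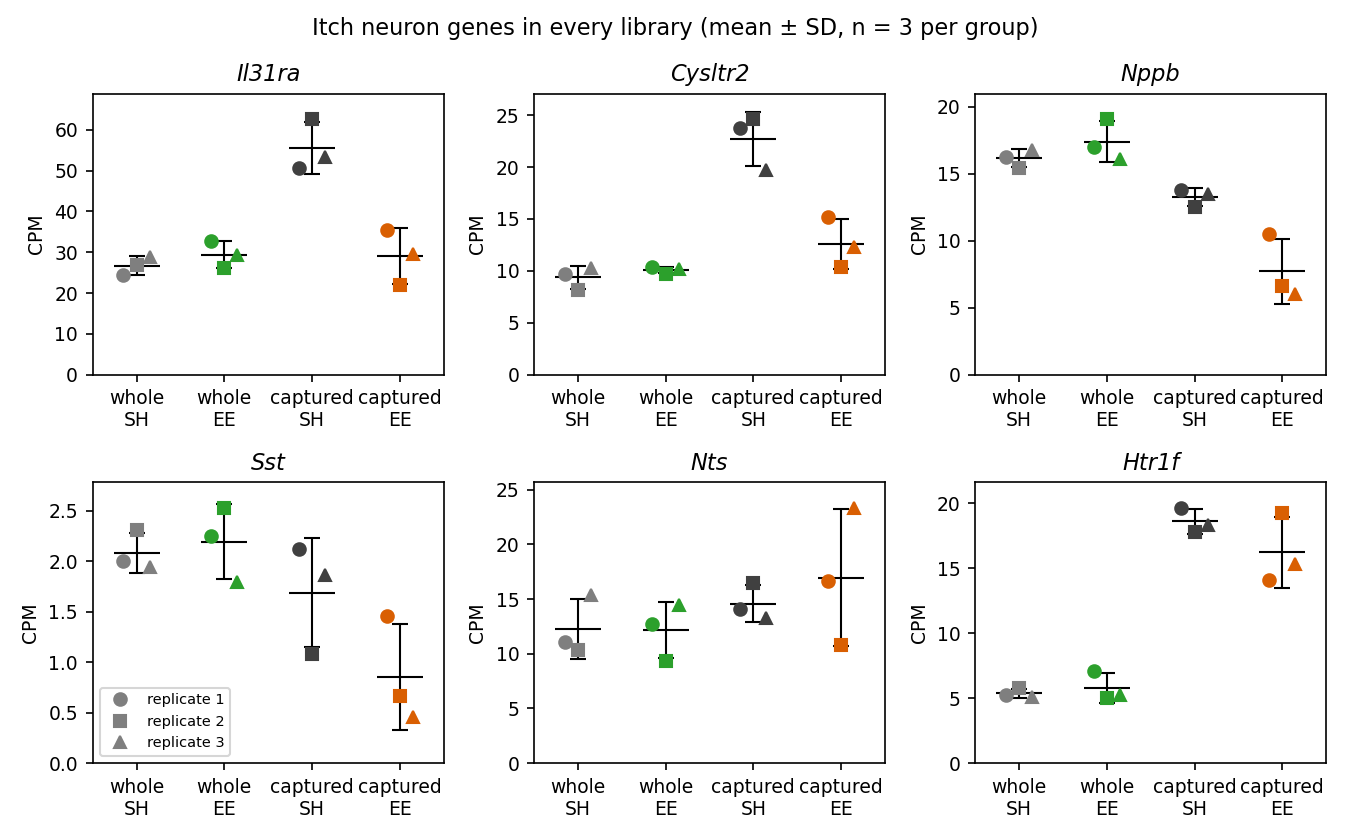
CPM (vertical axis, from 0) of the 6 genes in whole ganglia and captured neurons under SH and EE. Each point is 1 library, its shape the replicate number, and bars are the mean ± SD (n = 3). The captured EE libraries of Il31ra, Cysltr2 and Nppb all lie below the captured SH libraries, while the groups overlap in whole ganglia.

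For each of the 4 genes with the larger differences, EE replicate 1 was the highest of the 3 EE libraries. Without it the log2 fold change was −1.11 for Il31ra, −1.0 for Cysltr2, −1.07 for Nppb and −1.58 for Sst. Within lane 3, where that library is absent, the values were −1.01 (SE 0.12) for Il31ra, −0.94 (SE 0.14) for Cysltr2, −1.11 (SE 0.15) for Nppb and −1.83 (SE 0.43) for Sst. In the same lane Nts stood at 0.33 (SE 0.25) and Htr1f at −0.14 (SE 0.13). Across all alternatives run, including each library left out in turn, Il31ra ranged from −1.11 to −0.76, Cysltr2 from −1.0 to −0.71, Nppb from −1.11 to −0.62 and Sst from −1.83 to −0.63.

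The housing difference in captured neurons minus that in whole ganglia was −1.07 (SE 0.18) for Il31ra, −0.94 (SE 0.19) for Cysltr2, −0.88 (SE 0.22) for Nppb and −1.0 (SE 0.49) for Sst, on the log2 scale. It was 0.24 (SE 0.28) for Nts and −0.30 (SE 0.21) for Htr1f. These differences were not tested, because both contrasts were known when the genes were chosen.

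**Figure D2:**
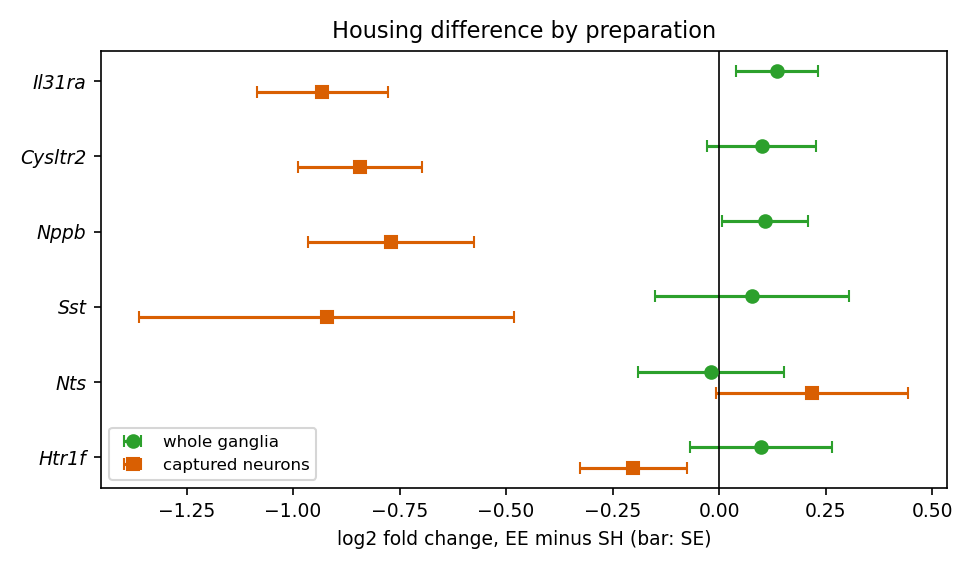
Log2 fold change of EE over SH (horizontal axis) for the 6 genes in whole ganglia (circles) and captured neurons (squares), with bars for the SE. In whole ganglia the values lie between −0.019 and 0.14, and in captured neurons Il31ra, Cysltr2, Nppb and Sst lie between −0.93 and −0.77.

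Ratios of reads within a library need no scaling between libraries. Per Il31ra read, captured libraries held 0.370 to 0.471 Cysltr2 reads in SH and 0.416 to 0.473 in EE, so the 2 receptor genes kept overlapping ratios. Nppb reads per Il31ra read overlapped too, at 0.200 to 0.272 in SH and 0.203 to 0.302 in EE. Nts reads per Il31ra read lay at 0.248 to 0.278 in captured SH libraries and at 0.470 to 0.790 in captured EE libraries, without overlap. The same ratio was 0.386 to 0.534 in whole SH and 0.359 to 0.492 in whole EE libraries. Htr1f reads per Il31ra read were 0.284 to 0.389 in captured SH and 0.397 to 0.879 in captured EE. Il31ra, the divisor, lay lower in captured EE and was chosen with this contrast known, so these ratios hold its difference. The share of all genes without overlap in such a ratio was not computed, and nothing is read from the lack of overlap.

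Pattern likeness was measured over all 12 libraries as the root mean square difference between log2 CPM profiles, each centred within its preparation, among 12996 genes. Of the members, Il31ra lay closest to Cysltr2 (0.13) and Sst closest to Nppb (0.16), whereas Nts lay at 0.39 to 0.57 from each of the others. For comparison, the profile of Il31ra deviated from a flat one by 0.38. Centring within a preparation keeps the housing differences, which were known when the members were chosen. The distances between members therefore restate those differences in part and were not tested. The nearest genes to Il31ra were Wnt2b (0.12), Wdr66 (0.13) and Cysltr2, and those to Cysltr2 were Mpped2 (0.10), Pde4c (0.11) and Fam19a4 (0.13). Those to Nppb were Otoa, Slc17a8 and Dok1 (0.13 each), and those to Sst were Nppb, P2rx2 (0.18) and Figf (0.20). Nts had Cdca7 as its nearest gene (0.17), at a distance not far below its own deviation of 0.29, and Htr1f, which deviated by 0.17 itself, had Hmcn1 (0.09).

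Per length, the order of the 6 genes differed between preparations. In whole SH ganglia the authors' FPKM put Nppb first (20.7 ± 0.88, SD, n = 3), followed by Nts (10.4 ± 2.34), Il31ra (7.27 ± 0.65), Cysltr2 (5.20 ± 0.61), Sst (3.47 ± 0.33) and Htr1f (2.13 ± 0.15), and no neighbours in this order overlapped. In whole EE ganglia the order was the same, with Nts (10.2 ± 2.13) overlapping Il31ra (7.93 ± 0.79). For captured neurons, CPM were divided by the gene length implied by those FPKM. In captured SH libraries Nppb (16.8 ± 1.14 CPM per kilobase) overlapped Il31ra (15.0 ± 1.41), and Cysltr2 (12.5 ± 1.36) overlapped Nts (12.3 ± 1.20). Htr1f (7.34 ± 0.50) and Sst (2.80 ± 0.94) followed, each below all libraries of the gene before it. In captured EE libraries Nts (14.3 ± 5.16) had the highest mean, and each of Nts, Nppb (9.83 ± 3.17), Il31ra (7.87 ± 1.85), Cysltr2 (6.96 ± 1.33) and Htr1f (6.43 ± 1.11) overlapped its neighbour, with Sst (1.43 ± 0.88) below.

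Reads of all 6 genes were present in the captured libraries. Averaged over both housings with equal weight, Htr1f was 3.61-fold, Cysltr2 2.01-fold, Il31ra 1.66-fold and Nts 1.49-fold higher in captured-neuron libraries than in whole ganglia. Nppb was 1.43-fold and Sst 1.51-fold lower. These averages join unlike values per housing. On the log2 scale Nppb stood at −0.073 in SH and −0.96 in EE, Sst at −0.093 and −1.09, and Il31ra at 1.27 and 0.19. The lower averages of Nppb and Sst thus rest mostly on the EE libraries, whose values entered the choice of the members. The log2 fold changes (captured minus whole) were 1.85 (SE 0.11, adjusted p = 4.8e-11) for Htr1f, 1.01 (SE 0.10, adjusted p = 7.16e-08) for Cysltr2, 0.73 (SE 0.10, adjusted p = 3.81e-06) for Il31ra and 0.58 (SE 0.16, adjusted p = 0.00379) for Nts (edgeR quasi-likelihood test, Benjamini-Hochberg). Those of Nppb (−0.52, SE 0.11, adjusted p = 0.000469) and Sst (−0.59, SE 0.25, adjusted p = 0.0393) were negative in the same edgeR fit. The p-values of Nppb and Sst are not independent of the choice of members, and nothing is read from them. All 6 members thus passed, as did 81.7% of the 17412 genes tested. The call of Sst was lost, with adjusted p from 0.0567 to 0.0959 (edgeR, same test), when whole SH replicate 1, 2 or 3, whole EE replicate 1 or 2, captured SH replicate 2 or captured EE replicate 2 or 3 was left out. Capture, kit (poly(A) selection for whole ganglia, ribosomal RNA depletion for captured neurons) and RNA integrity (above 7.5 and between 6 and 7) cannot be told apart here. Sequencing lanes and mice per library (2 and 3) also differed between the preparations, and only whole-ganglion columns are named Sham, so these cannot be told apart either.

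Marker lists moved in the same contrast. Of 11 non-peptidergic nociceptor markers 9 rose and 1 fell (median log2 fold change 0.58), and of 4 markers of C low-threshold mechanoreceptors 3 rose and none fell (0.51). Of 8 peptidergic markers 1 rose and 6 fell (−0.48), and of 18 large-diameter neuron markers 7 rose and 8 fell (0.073). Of 9 satellite glia markers 4 rose and 4 fell (−0.15), while all 9 myelinating Schwann cell markers fell (−2.23). Of 8 endothelial markers 3 rose and 5 fell (−0.30), of 9 macrophage markers 1 rose and 6 fell (−1.04), and of 5 mast cell markers 4 fell (−2.16). Calls are those of the edgeR test above, beside 40.8% of all genes that rose and 40.9% that fell. The part of these cell types in the members' differences was not tested.

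The distance from whole ganglia was not the same in both housings. In SH, the captured-minus-whole log2 fold change was 1.27 (SE 0.14) for Il31ra, 1.48 (SE 0.14) for Cysltr2, 2.01 (SE 0.15) for Htr1f, 0.46 (SE 0.23) for Nts, −0.073 (SE 0.16) for Nppb and −0.093 (SE 0.34) for Sst. In EE it was 0.19 (SE 0.14) for Il31ra, 0.53 (SE 0.14) for Cysltr2, 1.70 (SE 0.15) for Htr1f, 0.69 (SE 0.23) for Nts, −0.96 (SE 0.16) for Nppb and −1.09 (SE 0.37) for Sst. These values hold the housing differences described above and were not tested. Single libraries moved some of them: in EE, Il31ra was at 0.36 without captured EE replicate 2, Nts at 0.39 without captured EE replicate 3 and Sst at −1.76 without captured EE replicate 1. Scaling by library size alone moved the median of all genes by −0.21 in the contrast over both housings and the share of higher calls from 50% to 40.7%. It kept the direction of all 6 members in that contrast, with Il31ra at 0.52 and Nppb at −0.72.

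Among all genes, the captured-minus-whole log2 fold change was larger in longer genes, except those of up to 500 bases (351 genes, median 0.36), and the peptide genes are the short ones. Genes with more than 500 and up to 1000 bases of merged exons (582 genes) had a median of −1.22, beside −0.52 for Nppb and −0.59 for Sst. Genes of more than 1000 and up to 1500 bases (803 genes) had a median of −0.76, beside 0.58 for Nts. The 3576 genes of more than 2500 and up to 4000 bases had a median of −0.30, beside 1.85 for Htr1f and 1.01 for Cysltr2. The 3570 genes of more than 4000 and up to 6000 bases had a median of 0.037, beside 0.73 for Il31ra. Each member therefore lay above the median of its length class. The part of transcript length in the difference between the preparations was not tested.

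**Figure D3:**
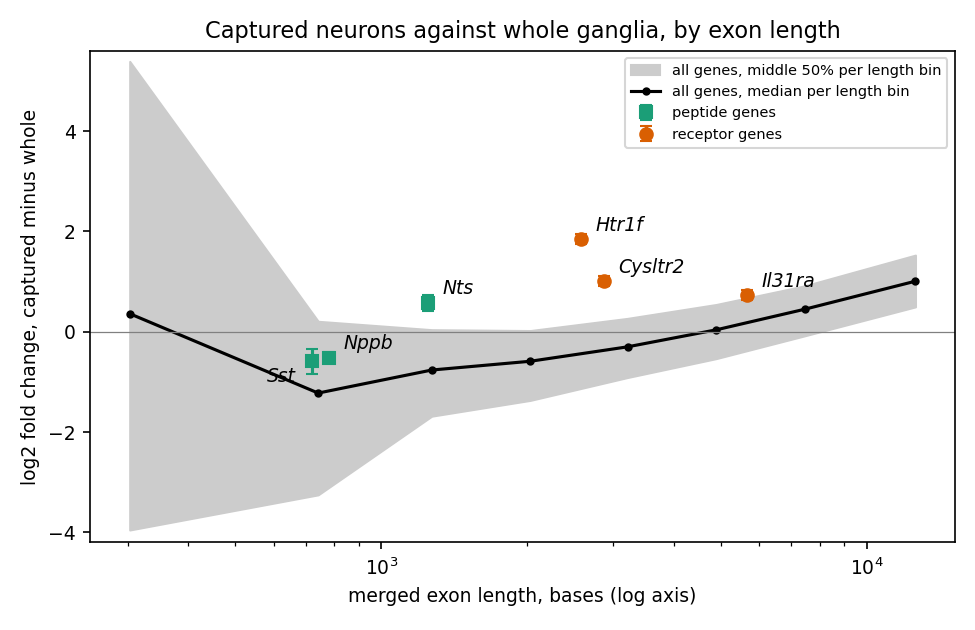
Log2 fold change of captured neurons over whole ganglia, averaged over both housings (vertical axis), against merged exon length (horizontal axis, log scale). Points with SE bars are the 6 genes, and the line and band are the median and the middle 50% of all genes with a length in each length class. The peptide genes Nppb and Sst lie below 0 and all 6 genes lie above the line.

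Other genes of the itch pathway were read from lists by role, over all genes tested. Of 12 genes of the interleukin 31 receptor partner and its signalling, none passed an adjusted p of 0.05 with housing in either preparation (edgeR), beside 0.0185% of all genes in captured neurons (3 genes). At an unadjusted p under 0.05 there were 0 in whole ganglia and 4 in captured neurons, and DESeq2 called 0 and 2. For this and the lists below, the counts over all genes were 459 of 15845 in whole ganglia and 2576 of 16186 in captured neurons at an unadjusted p under 0.05 (edgeR). DESeq2 called 1 and 522 of them. In captured neurons, 4 of the 12 did not overlap between housings and were lower in EE, beside the 10.9% of all genes given above. Osmr, the partner subunit of Il31ra, stood at 110 ± 3.79 CPM in SH and 83.0 ± 6.66 CPM in EE (SD, n = 3, log2 fold change −0.41, SE 0.075). Il6st, the shared gp130 subunit of related cytokine receptors, stood at −0.33 (SE 0.10), and Stat5b, a transcription factor activated by Jak kinases, at −0.26 (SE 0.096). The fourth was Stat3, of the same family, at −0.16 (SE 0.063). Jak1 itself stood at −0.031 (SE 0.060). In whole ganglia Osmr stood at 0.15 (SE 0.068). In captured over whole, averaged over both housings, 6 of these 12 genes rose and 2 fell, Osmr by 0.91 (SE 0.050, adjusted p = 3.06e-11) and Il6st by 1.27 (SE 0.075, adjusted p = 8.29e-11) among those that rose (edgeR, same test), where 40.8% of all genes rose and 40.9% fell.

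Of 21 other receptors for itch-inducing substances measured in captured neurons, 1 fell with enrichment, the Mas-related receptor gene Mrgprb5 (from 27.0 ± 1.39 to 13.0 ± 1.12 CPM, log2 fold change −1.05, SE 0.098, adjusted p = 0.0119, edgeR quasi-likelihood test), beside 0.0124% of all genes that fell and 0.00618% that rose. Mrgprb5 belongs to a family of near-identical genes, so its counts are uncertain. Its call was lost without captured SH replicate 1, 2 or 3 or EE replicate 3 and with the replicate block (adjusted p from 0.0543 to 0.125, edgeR), at log2 fold changes from −1.09 to −1.01. DESeq2 called 4 of the 21. The list's median was −0.20 beside −0.00059 for all genes. Without overlap, 3 of the 21 lay higher in EE (10.2% of all genes did) and 6 lower (10.9%), all but Mrgprb5 short of the threshold and named here after their values were seen. The higher ones were the serotonin receptor genes Htr3b at 0.73 (SE 0.14), Htr7 at 0.34 (SE 0.10) and Htr1d at 0.31 (SE 0.096). Another serotonin receptor gene, Htr1a, was among the lower ones at −0.41 (SE 0.14), with Lpar3, Lpar5, Mrgpra3, Mrgprb5 and Mrgprd. Of 17 genes of signal transduction in itch neurons, none passed in edgeR (10 at an unadjusted p under 0.05, 6 in DESeq2) and 13 were negative, with the sodium channel genes Scn10a at −0.45 (SE 0.095) and Scn11a at −0.53 (SE 0.11). Within lane 3, 11 of the 17 fell and 1, Ano1, rose, where 4.06% of all genes passed (2.18% fell and 1.88% rose). Of the 12 genes of the receptor partner list, 2 fell in that lane, Osmr and Il6st.

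Among genes that process and pack peptides, values lay on both sides of 0. Of 14 measured in captured neurons none passed in edgeR (5 at an unadjusted p under 0.05, 4 in DESeq2), and the median log2 fold change was 0.043. Chga, a granin of dense core vesicles, stood at 0.39 (SE 0.078) and Pcsk1, a prohormone convertase, at 0.30 (SE 0.071), while Furin, another convertase, stood at −0.57 (SE 0.14). Within lane 3 the list's median was −0.048, and Chga and Chgb rose while Pam and Scg3 fell. In whole ganglia the same list had a median of 0.022, with 0 of 13 past the threshold in edgeR or DESeq2 and 1 at an unadjusted p under 0.05. Of 15 receptors of the peptides and genes of the spinal relay 10 were measured in each preparation and none passed with housing in edgeR or DESeq2, with 0 at an unadjusted p under 0.05 in either preparation. Npr1, the Nppb receptor, was at 4.50 ± 0.93 CPM in whole SH ganglia and 2.40 ± 0.61 CPM in captured SH neurons (SD, n = 3). Sstr2, a somatostatin receptor, was at 5.03 ± 0.24 and 5.04 ± 0.76 CPM. Cysltr1, the other cysteinyl leukotriene receptor gene, was at 0.847 ± 0.33 CPM in whole SH ganglia and 1.09 ± 0.60 CPM in captured SH neurons.

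None of 6 measured genes for cytokine receptors with a part in itch and none of 6 for the ligands and their synthesis passed with housing in captured neurons in edgeR or DESeq2, with 0 and 1 at an unadjusted p under 0.05, and their medians were −0.21 and −0.12. In whole ganglia 7 and 6 were measured, with medians of 0.082 and 0.12, none past the threshold in either tool and 0 at an unadjusted p under 0.05.

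Markers of other neuron classes were read in the same captured libraries. No neuron marker passed with housing in edgeR over all captured libraries. Within lane 3, 10 of 11 non-peptidergic, 3 of 8 peptidergic and 3 of 4 C low-threshold mechanoreceptor markers fell and none rose. There 12 of 18 large-diameter neuron markers rose and none fell, where 2.18% of all genes fell and 1.88% rose (edgeR). Among all 16186 genes over all captured libraries, 2576 had an unadjusted p under 0.05 (edgeR) and DESeq2 called 522. All 11 non-peptidergic nociceptor markers (among them Mrgprd, P2rx3, Gfra2 and Lpar3) were lower in each EE library than in each SH library (10.9% of all genes were), 11 at an unadjusted p under 0.05 and 10 called by DESeq2, with a median log2 fold change of −0.51, and their summed level was 3101 to 3862 CPM in SH and 2253 to 2687 CPM in EE. Of 4 markers of C low-threshold mechanoreceptors (Th, Slc17a8, Fam19a4 and Cdh9), 3 were lower without overlap, beside the same 10.9%, 4 at an unadjusted p under 0.05 and 3 called by DESeq2, with sums of 142 to 169 CPM in SH and 81.4 to 141 CPM in EE. Peptidergic nociceptor markers (8, among them Calca and Tac1) all overlapped, 1 at an unadjusted p under 0.05 and 0 called by DESeq2, with sums of 1059 to 1275 and 1048 to 1508 CPM. Large-diameter neuron markers (18, among them Nefh, Nefm and Nefl) had a median of 0.41, 17 being positive and 5 higher without overlap (10.2% of all genes lay higher without overlap), 10 at an unadjusted p under 0.05 and 6 called by DESeq2, with sums of 9413 to 11580 CPM in SH and 11930 to 16110 CPM in EE. None of these markers was at 0 in a captured library, and their part in the result was not tested. In these bulk samples, fewer itch neurons and less RNA per itch neuron cannot be told apart.

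Set against the median of the non-peptidergic markers in the same library, Il31ra lay at −1.46 to −1.36 log2 units in captured SH and at −2.13 to −1.68 in captured EE, and Cysltr2 at −2.78 to −2.48 and −3.17 to −2.91, neither overlapping. Nppb (−3.73 to −3.25 and −3.89 to −3.49) and Sst (−6.77 to −5.70 and −6.65 to −5.98) overlapped, as did Htr1f (−3.24 to −2.75 and −3.08 to −2.31). Nts was higher in EE on this scale, from −3.35 to −3.22 in SH and from −3.11 to −2.01 in EE. Against the peptidergic median, Il31ra (−1.35 to −1.02 in SH and −2.10 to −1.94 in EE), Cysltr2 (−2.53 to −2.35 and −3.17 to −3.14) and Nppb (−3.30 to −3.06 and −4.15 to −3.67) did not overlap, while Sst, Nts and Htr1f did. Against the large-diameter median, Il31ra, Cysltr2, Nppb and Htr1f were lower in EE without overlap, and Sst and Nts overlapped. Which members separated thus depended on the reference list, except for Il31ra and Cysltr2 among these 3 lists. These values hold the housing differences that were known when the members were chosen. The share of all genes that separate on this scale was not computed, so nothing is read from the separation.

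Cysltr2 is also expressed by endothelial cells. Their 8 markers (among them Pecam1, Cdh5, Kdr and Tek) summed to 114 to 125 CPM in captured SH and 117 to 136 CPM in captured EE libraries, and all 8 log2 fold changes were positive. Satellite glia markers (9, among them Fabp7, Kcnj10, Glul and Apoe) summed to 2183 to 2448 and 2742 to 3004 CPM, with 4 higher in EE without overlap, beside the 10.2% of all genes. Fabp7 rose (0.80, adjusted p = 0.0322, edgeR), a call lost without captured SH replicate 1, 2 or 3 or EE replicate 2 and with the replicate block (adjusted p from 0.0626 to 0.175, edgeR). Mast cell markers (8) summed to 3.25 to 4.59 CPM in captured SH and 2.52 to 4.66 CPM in captured EE libraries, with up to 2 of them at 0. Macrophage markers (9) summed to 37.4 to 55.4 and 49.6 to 58.4 CPM. Myelinating Schwann cell markers (9) summed to 1046 to 1311 and 923 to 1201 CPM, beside 7240 to 8899 CPM in whole SH ganglia.

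**Figure D4:**
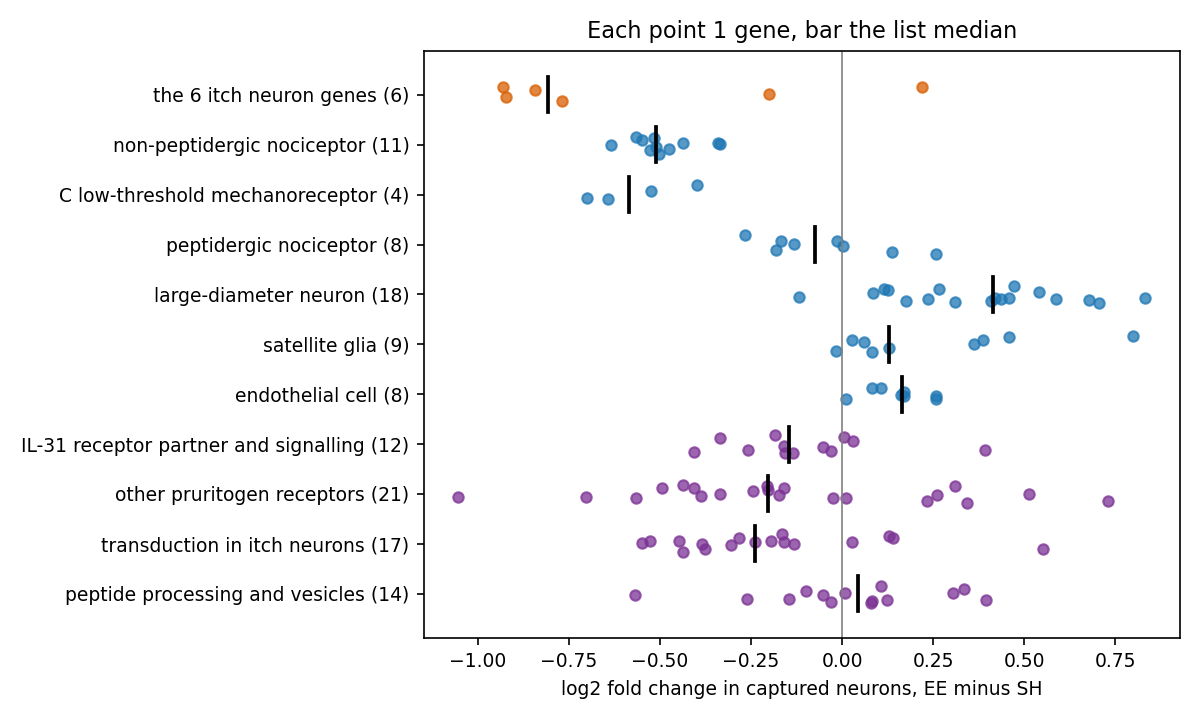
Log2 fold change of EE over SH in captured neurons (horizontal axis) for the 6 itch neuron genes and for marker and pathway lists, with the number of measured genes in brackets. Each point is 1 gene and each bar a list median. Non-peptidergic nociceptor markers have a median of −0.51 and large-diameter neuron markers of 0.41.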

How the data were processed

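Gene expression was measured by RNA sequencing in 12 libraries. The authors deposited whole-number read counts per gene name, 1 table per preparation, and FPKM for whole ganglia, which were proportional to the counts for all 12080 genes compared (within a relative tolerance of 0.001). A further deposited table for captured neurons holds a signal in which each library's counts were multiplied by 1 factor, and it entered no comparison. Per the submitters' processing notes the build was mm10, and the tools listed, without roles, include HTSeq 0.6.0, TopHat2 2.0.12 and Bowtie2 2.2.3. Whether counting used strand is not given in the sources used here. Each column was assigned by the housing and replicate number in its name. The whole-ganglion names also carry the word Sham, which no label explains. The 5 summary rows of the count tables name no gene and were left out: reads in no feature were 47.0 to 47.6% in whole ganglia and 28.0 to 36.3% in captured neurons. Libraries of a group were not duplicates (chi-square per degree of freedom 3.95 to 21.5).

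The test on counts was that of edgeR 4.0.16 under R 4.3.3 (filterByExpr, TMM, quasi-likelihood test, Benjamini-Hochberg adjustment at 0.05), each preparation on its own for housing and all 12 libraries together for captured against whole. The joint fit shared each gene's dispersion between preparations, whose spread differed (common coefficient of variation 0.074 in whole ganglia, 0.121 in captured neurons). Its SE and p-values are therefore approximate. The SE is the log2 fold change divided by the root of the F statistic. The contrast over both housings was added after seeing the data. Alternatives were DESeq2 1.42.0, other scaling, no filter, a replicate block, lane 3 alone and each library left out. Marker and member profiles used log2 CPM with 0.5 added. Merged exon lengths (GENCODE vM21) were found for 90% of genes. On simulated counts with 200 genes changed 2-fold, the test recovered 97% in captured neurons, with 16 false calls among 210. That rate is given for the simulated counts alone. In the real captured libraries the number of calls ran from 0 to 602 with each library left out. The members, lists and tests were chosen with earlier results of these data known. Text names all members, list genes past the threshold or up to 3 with the smallest p, fixed partner genes, the first 4 markers of a list and up to 3 nearest genes, not all of them in each case. Whole-ganglion replicate numbers share a lane per the labels and so pair the libraries, with correlations of deviations of 0.333, 0.160 and 0.0736. Whole EE replicate 2 correlated more with whole SH replicate 3 (0.189) than with its own number. The main test did not use the pairs, whereas the replicate block did. Captured numbers share no lane except replicate 3 and do not pair.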

Additional observations from a re-analysis of the deposited data

How the results depend on the processing

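Counts of genes with a housing difference depended on the processing. In whole ganglia, leaving out single libraries changed the sign of Sst (−0.046 without EE replicate 2), Nts (0.14 without EE replicate 2, 0.17 without SH replicate 3) and Htr1f (−0.071 without EE replicate 1), and took Cysltr2 to 0.011 (without SH replicate 2). In captured neurons Sst ran from −1.83 to −0.63 and Nts from −0.078 to 0.46. In whole ganglia 1 gene passed as reported, 0 with library size alone, 48 with no filter, 32 with the replicate block and 0 to 2 with each library left out. In captured neurons 3 passed as reported, 902 with no filter, 522 with DESeq2, 0 with the replicate block, 658 within lane 3 alone and 0 to 602 with each library left out, the highest without EE replicate 1. For captured against whole, all counts of genes stayed within 1.5 times the reported one under the alternatives run. With the replicate block, captured log2 fold changes were −0.95 for Il31ra, −0.85 for Cysltr2, −0.81 for Nppb and −1.02 for Sst. In captured neurons, replicate numbers had correlations of deviations of 0.110, −0.0435 and 0.145, so they are only numbers, and not every library correlated best with its own number. Within SH, captured-minus-whole for Sst ranged from −0.288 to 0.15 with libraries left out, reversing without captured SH replicate 2, and within EE that of Il31ra reversed to −0.00031 with library size alone. The cause of these changes was not tested. Sst, with 10 to 43 reads per captured library, is limited by depth.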
